A study of Mus musculus with 6 samples.

Results

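Insulin-like growth factor 1 (IGF1) is a secreted growth signal, and 10 genes around it were followed here: the ligand gene Igf1, the gene of its receptor Igf1r, the binding protein genes Igfbp2, Igfbp3, Igfbp4, Igfbp5, Igfbp6 and Igfbp7, and Irs1 and Irs2, whose products carry the signal inside the cell. They were taken by gene symbol, and all 10 were found among the 21671 named genes of the table and passed the filter on low counts. Beside their shared pathway they were chosen by symbol with the log2 fold changes of this same comparison in view, so their differences between the groups are given as a description, and how many were past the threshold of the fit over all genes is given only beside the share of all genes. Tests are given for other genes of the pathway, whose list was also chosen with earlier results of these data known.

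RNA was sequenced after ribosomal RNA depletion from subcutaneous tumours of transformed mouse hepatoblasts in CD1 nude ho mice. The tumours labelled ST18 knockdown were taken 4 h after doxycycline was given by gavage (300 µl of water with 200 mg/ml), and the others were untreated and are labelled wild type, with 3 libraries in each group. All hepatoblasts carried TtRMPVIR shST18, a vector with a doxycycline-inducible hairpin RNA that targets St18, whose product is a zinc finger transcription factor. The labels describe no tumours that received doxycycline without the hairpin, so the drug, the gavage and the hairpin cannot be told apart. Nude mice lack a normal thymus and so have few T cells. The host stroma of these tumours was not measured. The labels do not state whether the libraries stand for different animals, and where they do not, the spread and p-values may be technical.

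Totals were 12090309 to 15899374 counts in named genes for the doxycycline libraries and 13148155 to 16169043 for the untreated libraries. The targeted gene St18 showed no fall: it had 34, 12 and 61 counts in doxycycline libraries 1, 2 and 3, against 12, 23 and 19 in untreated libraries 1, 2 and 3 and it did not pass the edgeR test (adjusted p = 0.298), with a log2 fold change of 1.03 and an SE of 0.55. Every difference below is therefore between libraries labelled ST18 knockdown and libraries labelled wild type. The liver proteins' genes Alb and Ttr had at most 2 counts in any library and Afp, a hepatoblast marker, 6 to 20, while Krt8, Krt18, Sox9 and Dlk1, also known from liver progenitors, had 71 counts or more in every library. In bulk tissue, fewer cells of a type and less RNA per cell cannot be told apart.

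As background, IGF1 is made by the liver under the control of growth hormone and, locally, by fibroblasts, macrophages and muscle. It binds a receptor tyrosine kinase, IGF1R, which phosphorylates the substrates IRS1 and IRS2 and so switches on PI3K and AKT. Most IGF outside cells is held by IGF binding proteins, which keep it from the receptor until proteases such as PAPP-A cut them, and stanniocalcins block PAPP-A. IGFBP7 is a relative that binds IGFs weakly.

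Promoter sequences were taken from RefSeq (GRCm38.p6), which has 11 windows for the 10 genes, each from 250 bases before to 50 after an annotated start. The stretch before the Igf1 start is shown because Igf1 had the largest difference of the 10, and the Irs1 and Irs2 stretches because these related genes share letters there. The capitals mark CACGTG, the E-box read by factors such as TFE3, and TGTTTTG, which resembles the insulin response sequences read by FOXO factors. No capitals stand in the Igf1 stretch, since none of the 4 motifs searched was found in it.
Igf1, 150 bases up to the start, chr10:87860961-87861110, plus strand: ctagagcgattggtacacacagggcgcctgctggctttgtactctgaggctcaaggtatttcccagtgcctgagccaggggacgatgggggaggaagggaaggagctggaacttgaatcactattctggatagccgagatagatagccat
Irs1, chr1:82291515-82291574, minus strand: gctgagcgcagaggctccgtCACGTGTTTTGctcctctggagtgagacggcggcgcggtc
Irs2, chr8:11008934-11008993, minus strand: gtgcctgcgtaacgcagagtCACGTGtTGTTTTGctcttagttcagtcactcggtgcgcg

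The E-box began 115 bases before the Irs1 start and 44 bases before the Irs2 start. TGTTTTG began 4 bases further on in Irs1, where it shares 2 letters with the E-box, and 7 bases further on in Irs2, where it shares none. Searched on both strands, CACGTG was in 7.15% of the 32851 promoter windows and in those of Igfbp2, Irs1 and Irs2. TGTTTTG was in 6.28% of all windows and, among the members, in those of Irs1 and Irs2. An E-box with TGTTTTG starting at most 10 bases further on stood in 9 windows of all (0.0274%), and 3 of these belong to Irs1, Irs2 and Irs4, which encodes another receptor substrate. That pair of motifs and its spacing were chosen after the sequences were read. The forkhead sequence GTAAACA (3.65% of all windows) and the STAT sequence TTCNNNGAA (8.30%) were in no window of the 10 genes, which says only that these letters are absent there. Igfbp2 and Igfbp5 are neighbouring protein-coding genes on chromosome 1, as are Igfbp1 and Igfbp3 on chromosome 11.

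Igf1 was the member with the largest difference. It had 33.8, 11.4 and 31.4 normalised read counts (CPM, scaled by TMM) in doxycycline libraries 1, 2 and 3, against 4.08, 2.70 and 3.44 CPM in untreated libraries 1, 2 and 3. The groups did not overlap, doxycycline library 2 was the lowest of its group, and its level was still above every untreated library. The means were 25.5 ± 12.3 and 3.41 ± 0.691 CPM (SD, n = 3 each), a log2 fold change of 2.90 with an SE of 0.42. These rest on 1069 counts over the doxycycline libraries and 148 over the untreated libraries. Igf1 also overlaps an annotated antisense gene, and the strand setting of the counting is not given in the sources used here.

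Markers of fibroblasts, macrophages and other cell types differed between the groups in the same libraries. Tumour and host are both mouse, so whether these reads came from host or tumour cells cannot be told apart. The sum of 14 fibroblast markers was 2330, 2030 and 2270 CPM in doxycycline libraries 1, 2 and 3, against 1670, 1660 and 1680 CPM in untreated libraries 1, 2 and 3. In edgeR 4 of 14 rose (Dcn, Lum, Postn and Mfap5) and none passed as lower (median log2 fold change 0.75). Pi16 and Pdgfrb of this list lay below all untreated libraries (log2 fold change -0.83 and -0.19). Pi16 was called lower by DESeq2, and by edgeR without doxycycline library 2. The sum of 13 macrophage markers was 716, 595 and 791 CPM in doxycycline libraries, against 540, 454 and 498 CPM in untreated libraries, and 3 of 13 rose (Mrc1, Cd163 and Emr1) and none passed as lower (median 0.37). Cd68 and Aif1 of this list had negative log2 fold changes (-0.30 and -0.09) and overlapped between the groups. Emr1 did not pass in limma-voom, with a replicate block, with GC and length offsets or with both. For both lists doxycycline library 2 was the lowest of its group and above the untreated libraries. The endothelial sum and the smooth muscle and pericyte sum, given below, had the same pattern. The sum of skeletal muscle markers, of which 10 of 18 rose and none fell (median 3.35), did not overlap either. It was 1590, 3210 and 472 CPM in doxycycline libraries and 106, 257 and 121 CPM in untreated libraries, with doxycycline library 2 the highest. Ttn alone gave 935, 2040 and 297 CPM of it in doxycycline libraries and 44.6, 157 and 68.1 CPM in untreated libraries. Acta1, Myh1, Des and Mb overlapped between the groups, and Myh1 and Myh2 were highest in doxycycline library 1. The sum of 8 smooth muscle and pericyte markers was 294, 246 and 283 CPM in doxycycline libraries, against 182, 210 and 204 CPM in untreated libraries. None of the 8 passed in the main edgeR fit or limma-voom (4 at an unadjusted p under 0.05 in edgeR, 3 called higher by DESeq2). In other edgeR fits Acta2 and Tagln passed with no filter on low counts, Acta2 with a replicate block, and 4 of the 8 without doxycycline library 2. Des, which is also among the muscle markers, passed without doxycycline library 3. Neutrophil markers lay the other way, with a sum of 59.4, 47.1 and 104 CPM in doxycycline libraries, against 148, 154 and 223 CPM in untreated libraries, and 1 of 6 tested, Csf3r, fell (median -1.48). Csf3r did not pass in limma-voom, with no filter on low counts, with no robust option, with GC and length offsets, without doxycycline library 1 or without any 1 untreated library. Of the 6 neutrophil markers tested, 5 had an unadjusted p under 0.05 in edgeR, beside 23.9% of all genes tested. DESeq2 called 5 of the 6 lower. In edgeR 4 were called lower with a replicate block and 4 without doxycycline library 3. Without any 1 untreated library, 2 fibroblast markers (Dcn and Lum) and no macrophage or muscle marker passed in edgeR, with 6 to 8 macrophage and 15 to 16 muscle markers at an unadjusted p under 0.05. Of all genes tested, those fits called 11 to 27 higher and 12 to 25 lower, against 421 and 323 on all libraries. Without doxycycline library 1 or 3 no macrophage marker passed either, and without doxycycline library 2, 5 did. Of the muscle markers 2 passed without doxycycline library 1 or with no filter on low counts, 1 in limma-voom and 17 in DESeq2. No marker of these lists was at 0 in all libraries, and the part of these cell types in the Igf1 difference was not tested.

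**Figure D1:**
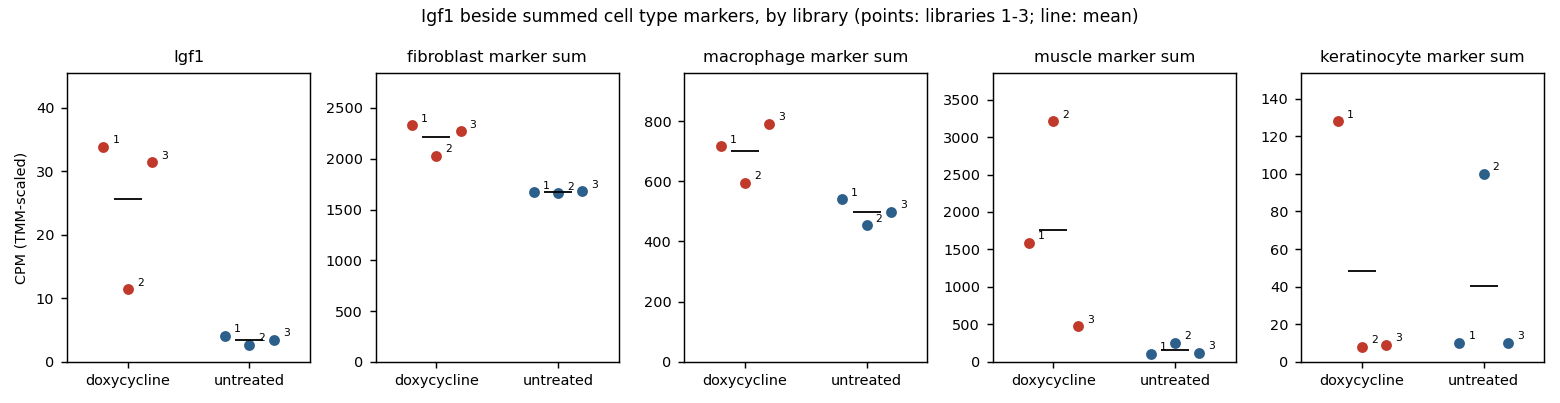
Igf1 and the summed levels of fibroblast, macrophage, muscle and keratinocyte markers, in TMM-scaled CPM, with doxycycline libraries left and untreated libraries right; points are libraries 1 to 3 and the line is the group mean. Igf1 (33.8, 11.4 and 31.4 CPM against 4.08, 2.70 and 3.44) and the fibroblast, macrophage and muscle sums do not overlap between the groups, and keratinocyte markers are high in doxycycline library 1 and untreated library 2.

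The genes whose pattern over the 6 libraries was most like that of Igf1, by Pearson's r of log2 CPM among 11445 genes with a mean of at least 5 CPM, were Tgfb3 (r = 0.9968), Pias3 (0.9962), Col12a1 (0.9954), Dlg3 (0.9948) and Ms4a7 (0.9947). These values describe the same 6 libraries, which fall into 2 groups. Of the 5, Col12a1, a collagen gene of fibroblasts, had a difference near the size of that of Igf1: 231, 84.8 and 288 CPM in doxycycline libraries, against 36.7, 22.9 and 29.4 CPM in untreated libraries, and a log2 fold change of 2.77 (SE 0.41). The log2 fold changes of the others were 0.48 for Tgfb3, a TGF-beta ligand gene, 0.27 for Pias3, 0.66 for Dlg3 and 1.55 for Ms4a7, a macrophage gene.

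The receptor gene Igf1r was at a similar mean level in both groups. It had 412, 226 and 363 CPM in doxycycline libraries 1, 2 and 3, against 303, 393 and 350 CPM in untreated libraries 1, 2 and 3. The ranges overlapped, and doxycycline library 2 was the lowest and doxycycline library 1 the highest of the 6. Its log2 fold change, with an SE of 0.20, was -0.06, and the 95% interval ran from -0.52 to 0.39. Most like it over the 6 libraries were Taf15 (r = 0.9987), Peak1 (0.9959), Pacs1 (0.9925), Cramp1l (0.9921) and Sf1 (0.9916), none with a log2 fold change beyond 0.07 in size.

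Of the binding proteins, Igfbp3, the main carrier of IGFs in blood, and Igfbp7 did not overlap between the groups, in opposite directions. Igfbp3 had 112, 78.9 and 110 CPM in doxycycline libraries, against 135, 114 and 128 CPM in untreated libraries, so that the highest doxycycline library lay just below the lowest untreated library (log2 fold change -0.32, SE 0.14). Igfbp7 had 35.4, 32.4 and 35.4 CPM in doxycycline libraries, against 30.9, 26.0 and 29.0 CPM in untreated libraries (0.27, SE 0.13). Both differences were small beside that of Igf1. Igfbp7 is abundant in blood vessels, and the sum of 8 endothelial markers was 433, 422 and 451 CPM in doxycycline libraries, against 339, 353 and 369 CPM in untreated libraries. Of the 8, Cdh5 and Tek were called higher (median log2 fold change 0.37). Pecam1, Kdr, Tie1, Vwf, Emcn and Eng overlapped between the groups, and Eng had a negative log2 fold change (-0.27). Neither Cdh5 nor Tek passed without any 1 untreated library, without doxycycline library 3 or with a replicate block. Tek also did not pass with the block and GC and length offsets together. The part of endothelial cells in the Igfbp7 values was not tested.

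Igfbp2 and Igfbp4 were set apart by doxycycline library 2. Igfbp2, a binding protein gene of fetal liver and many tumours, had 31.5, 68.1 and 18.3 CPM in doxycycline libraries 1, 2 and 3, against 48.5, 52.3 and 67.4 CPM in untreated libraries. Igfbp4, whose product is the classic substrate of PAPP-A, had 86.9, 137 and 84.8 CPM in doxycycline libraries, against 103, 112 and 127 CPM in untreated libraries. For both genes doxycycline libraries 1 and 3 lay below all untreated libraries, while doxycycline library 2 was the highest of the 6, so the groups overlapped. The log2 fold changes were -0.51 (SE 0.40) for Igfbp2 and -0.15 (SE 0.18) for Igfbp4, and without doxycycline library 2 they were -1.18 and -0.42. That library also had the highest muscle marker sum, 3210 CPM, of which Ttn gave 2040 CPM. The part of muscle RNA in these values was not tested.

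Igfbp5, whose product binds matrix as well as IGFs, overlapped between the groups and had a wide spread. It had 81.7, 42.0 and 31.8 CPM in doxycycline libraries 1, 2 and 3, against 70.2, 85.9 and 53.9 CPM in untreated libraries 1, 2 and 3 (log2 fold change -0.44, SE 0.32), and without doxycycline library 1 the log2 fold change was -0.93. Its 2 highest values, in doxycycline library 1 and untreated library 2, fell in the libraries with the most keratinocyte marker RNA. The sum of 6 keratinocyte markers was 128, 7.97 and 9.09 CPM in doxycycline libraries, against 10.1, 100 and 10.2 CPM in untreated libraries, and the 2 highest Igf1r values were in the same 2 libraries. The part of skin RNA in these values was not tested.

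Igfbp6, which prefers IGF2 as its ligand, had the lowest CPM of the 6 binding protein genes followed here, a measure that takes no account of gene length. Per kilobase of exon its mean was above that of Igfbp5 in doxycycline libraries (11.7 against 8.63 CPM) and below it in untreated libraries (10.1 against 11.7), with overlapping ranges. Igfbp6 had 10.6, 9.55 and 19.1 CPM in doxycycline libraries, against 11.1, 7.67 and 15.0 CPM in untreated libraries (log2 fold change 0.22, SE 0.34). The ranges overlapped, and library 3 was the highest in each group. The labels do not say whether same-numbered libraries share more than a number.

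Among the substrates, Irs2 was lower and Irs1 overlapped. Irs2 had 60.3, 71.4 and 84.7 CPM in doxycycline libraries, against 87.5, 103 and 91.5 CPM in untreated libraries, with no overlap and a log2 fold change of -0.38 (SE 0.13). Irs1 had 113, 195 and 127 CPM in doxycycline libraries, against 120, 147 and 146 CPM in untreated libraries (0.08, SE 0.19). Doxycycline library 2 was the highest of the 6 for Irs1 and lay within its group for Irs2. The order of the libraries thus differed between the 2 genes, whose promoter stretches are printed above.

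Over the 10 members, the groups did not overlap for 4 (Igf1 and Igfbp7 above, Igfbp3 and Irs2 below), beside 29.6% of the 14809 genes tested (15.2% above and 14.4% below). In the edgeR fit 1 member, Igf1, was past an adjusted p of 0.05, beside 5.02% of the genes tested (744 genes, with 421 or 2.84% higher and 323 or 2.18% lower). Without any 1 untreated library no member was past it in edgeR, with 2 at an unadjusted p under 0.05 in each of these fits. Of all genes tested, the same fits called 11 to 27 higher and 12 to 25 lower. Nothing is read from these member counts, since this contrast was known when the members were picked. The median log2 fold change was -0.11 over the members and 0.01 over all genes tested. The ratio of the highest to the lowest library was larger among the doxycycline libraries than among the untreated libraries for 9 of 10 members, with Igfbp7 the exception, and for 75.1% of all genes tested. For the members it ran from 1.09 to 3.72 in doxycycline libraries and from 1.18 to 1.95 in untreated libraries.

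**Figure D2:**
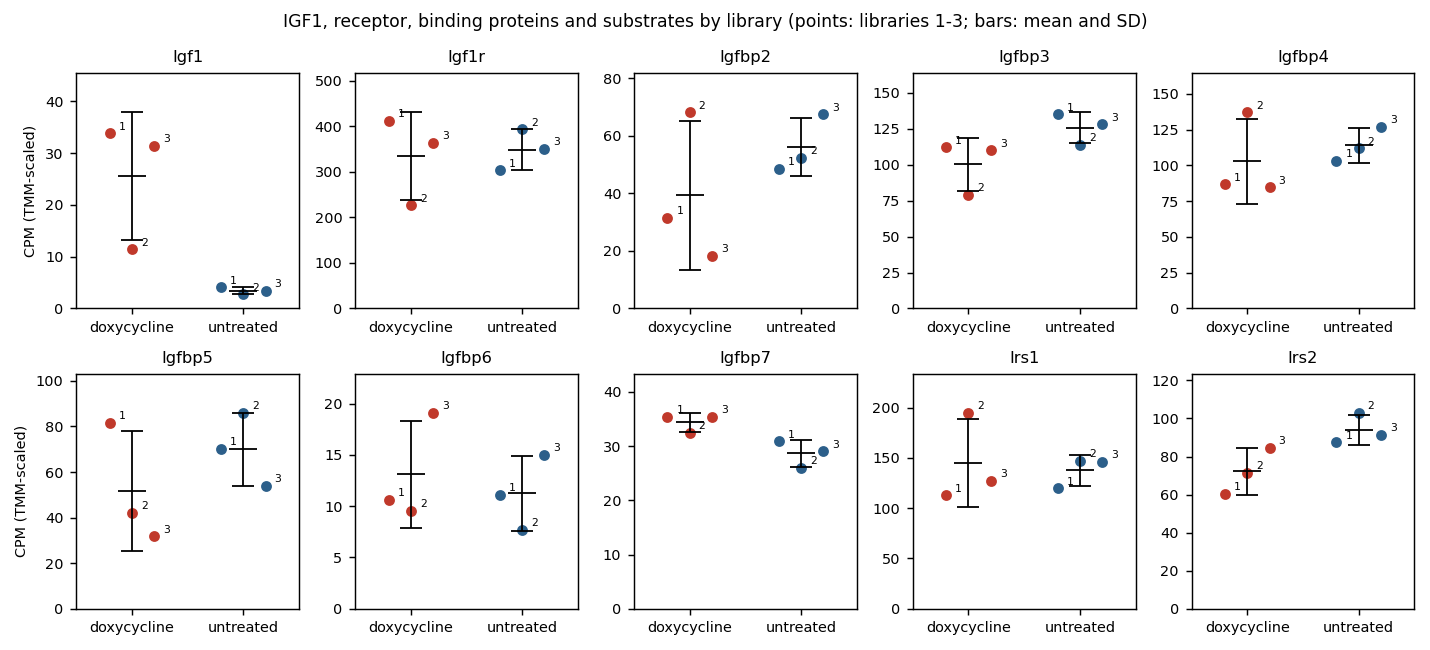
Level of each of the 10 members in TMM-scaled CPM, with doxycycline libraries left and untreated libraries right; points are libraries 1 to 3, and the bars are the mean and SD. Igf1 and Igfbp7 lie above and Igfbp3 and Irs2 below the untreated libraries without overlap, and doxycycline library 2 is the highest for Igfbp2, Igfbp4 and Irs1.

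Levels of different genes were compared per kilobase (kb) of exon. In doxycycline libraries Igfbp3 was highest (32.1 ± 5.95 CPM per kb; SD, n = 3), Igfbp7 was next (28.5 ± 1.42) and Igf1 was lowest (2.58 ± 1.24). Of the neighbours in that order, only Igfbp5 (8.63 ± 4.39) and Igf1 had library ranges without overlap. In untreated libraries the order of mean levels ran from Igfbp3 (40.1 ± 3.40 CPM per kb) through Igfbp2 (30.4 ± 5.43), Igfbp4 (25.9 ± 2.71), Igfbp7 (23.7 ± 2.07), Igf1r (20.8 ± 2.67), Irs1 (15.0 ± 1.66), Irs2 (14.9 ± 1.31), Igfbp5 (11.7 ± 2.67) and Igfbp6 (10.1 ± 3.29) to Igf1 (0.344 ± 0.0697; SD, n = 3). There the ranges of neighbours overlapped, except between Igf1r and Irs1 and between Igfbp6 and Igf1. The ligand gene was thus the least abundant member per length in both groups. With the longest transcript as the length, Igf1r stood at rank 3 rather than 5 in both groups, and in doxycycline libraries Igfbp2 stood at rank 2 rather than 4 and Igfbp7 at rank 4 rather than 2. Igfbp3 stayed highest and Igf1 lowest in both groups.

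**Figure D3:**
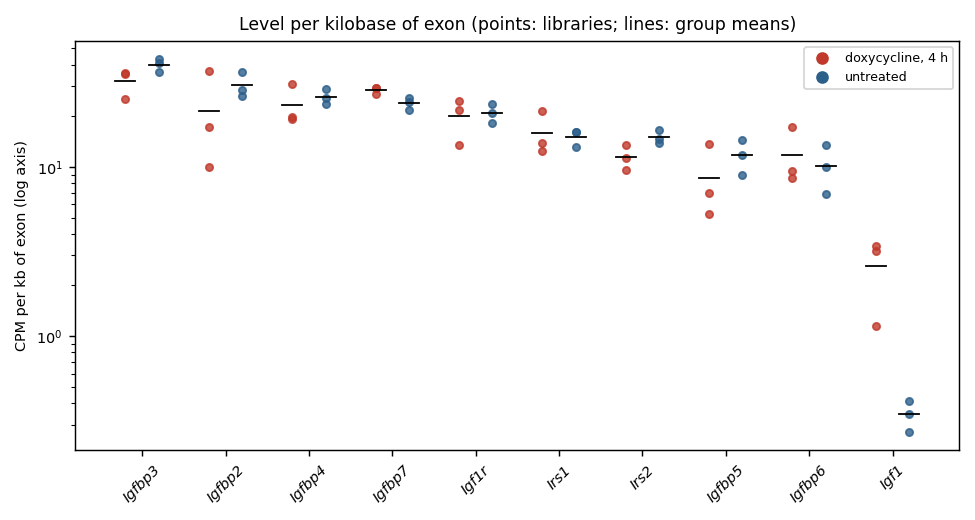
Level of each member in CPM per kb of exon on a log axis, in order of the untreated mean; red points are doxycycline libraries, blue points are untreated libraries and lines are group means. Igfbp3 is highest (32.1 in doxycycline and 40.1 in untreated libraries) and Igf1 lowest (2.58 and 0.344).

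The summed level of Igfbp2 to Igfbp7 was 125, 135 and 116 CPM per kb in doxycycline libraries, against 140, 133 and 153 CPM per kb in untreated libraries. Igfbp3 made up 28.7%, 18.6% and 30.3% of it in doxycycline libraries, against 30.8%, 27.4% and 26.7% in untreated libraries. The Igfbp2 share was 13.7%, 27.2% and 8.55% in doxycycline libraries, against 18.7%, 21.3% and 23.9% in untreated libraries. In doxycycline library 2 Igfbp2 had the largest share and in the other 5 libraries Igfbp3 did. The Igfbp7 share was 23.4%, 19.8% and 25.3% in doxycycline libraries, against 18.3%, 16.2% and 15.7% in untreated libraries, without overlap.

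Of the other IGF and insulin pathway genes listed by role, 70 were in the table and 63 passed the filter on low counts. In the edgeR test over all genes, 3 rose (Ghr, Adam12 and Pik3r1), 2 fell (Stc2 and Trib3) and 58 did not pass. That is 7.94% called, beside 5.02% of all genes tested. The list was chosen with earlier results of these data known, so nothing is read from this share. The median log2 fold change was -0.04, beside 0.01 over all genes, and its median size was 0.21 in both. Without untreated library 1, 2 or 3, none passed in edgeR, with 15, 17 and 14 at an unadjusted p under 0.05 where all libraries gave 22. Of all genes tested, 23.9% had an unadjusted p under 0.05 on all libraries. Without untreated library 1, 2 or 3, edgeR called 11, 27 and 14 of all genes higher and 12, 25 and 13 lower. DESeq2 on all libraries called 6 pathway genes higher and 7 lower, beside 887 and 782 of all genes. Without doxycycline library 2 edgeR called 8 pathway genes higher and 5 lower, beside 1244 and 866 of all genes.

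None of the 4 ligand, receptor and carrier genes tested outside the 10 members passed, in edgeR, DESeq2 or limma-voom, and 0 had an unadjusted p under 0.05 in edgeR. Igf2, the fetal IGF gene, had 9.89, 7.42 and 4.20 CPM in doxycycline libraries, against 8.92, 14.0 and 6.88 CPM in untreated libraries (log2 fold change -0.47, 95% interval -1.35 to 0.40, edgeR adjusted p = 0.497). It overlaps an annotated antisense gene, whose reads may not be told apart. The insulin receptor gene Insr averaged 226 ± 13.0 CPM in doxycycline libraries and 229 ± 15.8 CPM in untreated libraries (log2 fold change -0.02, 95% interval -0.20 to 0.16). Igf2r, whose product clears IGF2, averaged 605 ± 18.3 CPM in doxycycline libraries and 609 ± 14.9 CPM in untreated libraries (-0.01, interval -0.15 to 0.13). Igfals, the liver-made partner of IGFBP3 in blood, had 11 to 24 counts in doxycycline libraries and 14 to 18 in untreated libraries. Igfbp1, an insulin-repressed liver gene, had at most 3 counts in any library and Igfbpl1 at most 8, and neither passed the filter on low counts.

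Of the genes that act on the binding proteins, Stc2 fell and Adam12 rose. Stc2, which encodes stanniocalcin 2, an inhibitor of PAPP-A, had 15.4, 12.2 and 22.6 CPM in doxycycline libraries, against 39.0, 51.0 and 52.0 CPM in untreated libraries (log2 fold change -1.50, SE 0.23, edgeR adjusted p = 0.0166). Every doxycycline library was below every untreated library. The related Stc1 had 140, 136 and 137 CPM in doxycycline libraries, against 180, 164 and 157 CPM in untreated libraries, and did not pass (-0.28, adjusted p = 0.075). Adam12, a membrane protease gene whose product cuts IGFBP3 and IGFBP5, had 73.6, 52.4 and 57.6 CPM in doxycycline libraries, against 37.6, 32.7 and 27.7 CPM in untreated libraries (0.90, SE 0.17, adjusted p = 0.0247).

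Pappa, which encodes PAPP-A, had 67, 22 and 122 counts in doxycycline libraries, against 9, 18 and 14 counts in untreated libraries. The groups did not overlap in CPM, but the spread among doxycycline libraries was wide and the gene missed the threshold (log2 fold change 2.40, SE 0.59, edgeR adjusted p = 0.0545). Without doxycycline library 2 it passed (2.83, adjusted p = 0.00205). Pappa2, a related protease gene, had 7.21, 1.72 and 14.2 CPM in doxycycline libraries, against 8.92, 6.04 and 10.3 CPM in untreated libraries (-0.13, adjusted p = 0.926). Of the 8 genes listed for binding protein proteases and stanniocalcins, 1 rose and 1 fell. The fibroblast and macrophage marker sums given with Igf1 were higher in the same libraries, and their part in the Adam12 and Pappa values was not tested.

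Ghr, the growth hormone receptor gene, was the called gene of the growth hormone axis, whose end point in liver is Igf1 itself. It had 70.9, 96.6 and 78.6 CPM in doxycycline libraries, against 49.9, 45.5 and 46.6 CPM in untreated libraries (log2 fold change 0.79, SE 0.13, edgeR adjusted p = 0.0185). Its groups did not overlap, and doxycycline library 2, the lowest of its group for Igf1, was the highest for Ghr. None of the other 7 genes of this axis passed in edgeR, and DESeq2 called Cish, a feedback inhibitor gene, lower as well.

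Inside the cell, none of 12 adaptor genes, 9 mTOR branch genes or 3 Igf2 mRNA binding protein genes passed in edgeR or limma-voom, and their log2 fold changes ran from -0.50 to 0.53. Of these 24, 9 had an unadjusted p under 0.05 in edgeR and 5 were called by DESeq2 (Dok1 and Rps6kb1 higher, Igf2bp1, Mtor and Sh2b2 lower). Over all genes tested, 23.9% had an unadjusted p under 0.05 in edgeR, and DESeq2 called 887 higher and 782 lower. Without doxycycline library 2 edgeR called 7 of the 24 (Dok1, Gab1, Gab2, Mtor, Rheb, Rps6kb1 and Sh2b2), with no filter on low counts Mtor, and with GC and length offsets Dok1. Of 19 genes of PI3K, AKT and FOXO, Pik3r1, the main regulatory subunit gene of PI3K, rose, with 212, 230 and 212 CPM in doxycycline libraries, against 161, 186 and 158 CPM in untreated libraries (0.37, SE 0.08, adjusted p = 0.0466). On all 6 libraries Pik3r1 missed the threshold in limma-voom (adjusted p = 0.0542), and in edgeR with GC and length offsets (0.0941), with a replicate block (0.0563) and with both (0.111). Trib3, a stress-induced pseudokinase gene whose product binds AKT, fell, with 29.8, 44.0 and 53.9 CPM in doxycycline libraries, against 111, 112 and 110 CPM in untreated libraries (-1.38, SE 0.19, adjusted p = 0.0126). Each of the 5 called genes missed the threshold without any 1 untreated library, with adjusted p between 0.0633 and 0.238. Of all genes tested, those fits called 11 to 27 higher and 12 to 25 lower, against 421 and 323 on all libraries. Stc2 and Pik3r1 also missed the threshold without doxycycline library 1 (adjusted p = 0.0529 and 0.0726), and Adam12 and Pik3r1 without doxycycline library 3 (0.0648 and 0.0928). The sizes stayed close: over the fits that left out a library the log2 fold change was -1.78 to -1.31 for Stc2, -1.59 to -1.19 for Trib3, 0.66 to 0.89 for Ghr, 0.75 to 1.01 for Adam12 and 0.32 to 0.43 for Pik3r1.

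**Figure D4:**
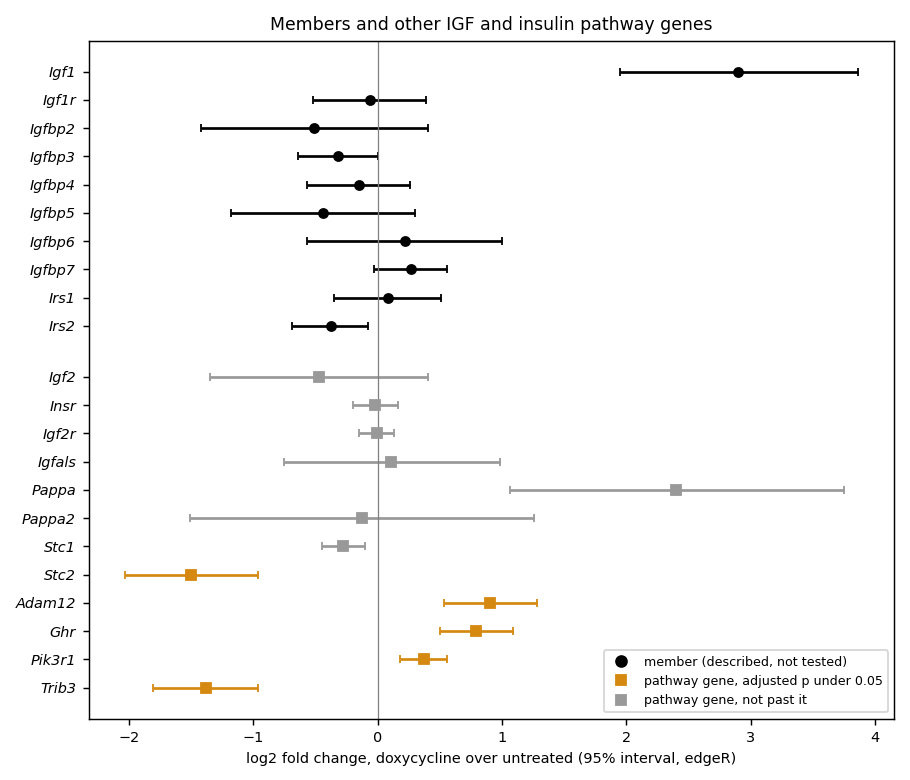
Log2 fold change, doxycycline over untreated, with its 95% interval from edgeR; circles are the 10 members and squares the named pathway genes tested, orange where the adjusted p was under 0.05. Igf1 (2.90) lies farthest to the right, and Stc2 (-1.50) and Trib3 (-1.38) farthest to the left.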

How the data were processed

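The authors deposited raw read counts per gene for 6 libraries. The submitters' processing notes name mm9 as the build and HTSeq, TopHat and TopHat2 2.0.8 as tools; how strand, multiply mapped reads and duplicates were treated is not given in the sources used here. Rows without a gene name (90, 0.0361% to 0.0402% of counts) were left out. Counts were tested in R 4.3.3 with edgeR 4.0.16 (filterByExpr, TMM with factors 0.985 to 1.02, robust quasi-likelihood test, two-sided, Benjamini-Hochberg adjustment over 14809 genes, threshold 0.05). The fit was tested on simulated data. Log2 fold changes are doxycycline over untreated; SE is the log2 fold change over the square root of F. Exonic lengths, GC content and chromosomes came from GENCODE M21 on GRCm38, another build than mm9; 21462 of 21671 genes matched by symbol or synonym. Members had at most 0.604 counts per exonic base in any library, where the highest untreated mean of any gene of at least 1 kb was 1.59.

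The members, pathway list, marker lists and naming rule were chosen with earlier results of these data known. Named pathway genes are 11 set by name and every other listed gene past the threshold. Alternatives were other size factors, no filter, DESeq2 1.42.0, limma-voom (limma 3.58.1), no robust option, a replicate block, GC and length offsets, and each library left out. No library repeated another within counting noise: pairs within a group gave a chi-square of 5.17 to 29.8 per degree of freedom, which does not show separate animals.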

Additional observations from a re-analysis of the deposited data

How the results depend on the processing

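Igf1 was higher in doxycycline libraries under all 14 alternatives (log2 fold change 2.57 to 3.25); Igfbp2, Igfbp3, Igfbp4, Igfbp5 and Irs2 stayed negative and Igfbp7 positive, while Igf1r, Igfbp6 and Irs1 took either sign. Members past the threshold numbered 0 to 1 higher and 0 to 2 lower (edgeR) over the fits that left out a library, with Igf1 not among them without untreated library 1, 2 or 3 and Igfbp2 and Igfbp4 among them without doxycycline library 2. Nothing is read from these member counts, since the members were chosen with this contrast known. On all libraries no member was past the threshold on the lower side in edgeR, DESeq2 or limma-voom. On that side 2 had an unadjusted p under 0.05 in edgeR, beside 23.9% of all genes tested in either direction. Pathway genes past the threshold numbered 0 to 8 higher and 0 to 5 lower when a library was left out, 6 higher and 7 lower in DESeq2, and 3 higher and 3 lower with GC and length offsets, where Pik3r1 no longer passed and Dok1 and Stc1 did. Over all genes, leaving out a doxycycline library gave 159 to 1244 higher and 130 to 866 lower. Leaving out an untreated library gave 11 to 27 higher and 12 to 25 lower. On all libraries DESeq2 gave 887 and 782, limma-voom 261 and 288, and GC and length offsets 305 and 188. Median GC content was 46.0% in genes called higher and 54.5% in genes called lower, and Igf1, at 38.0%, is the lowest of the members. Pappa passed in DESeq2 (adjusted p = 0.00545) and with no filter (0.027), and Stc1 in DESeq2 (0.0249) and with GC and length offsets (0.0362). The cause of these changes was not tested.

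No pairing by replicate number was seen: deviations from the group means correlated at -0.00976, -0.0747 and 0.0155 between same-numbered libraries. The other pairs ran from -0.143 to 0.136. With so few libraries these values cannot exclude a step shared by same-numbered libraries. With a replicate block 215 genes were higher and 179 lower, and with the block and GC and length offsets 151 and 82, including 1 pathway gene higher and 2 lower (Ghr and Pik3r1 did not pass, adjusted p = 0.0935 and 0.111). Members at 9.55 CPM or more rest on over 100 counts a library; Igf1 in untreated libraries rests on 43 to 54, and Pappa on 9 to 18.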
